A study of Mus musculus with 12 samples.

Results

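Dexamethasone (Dex, a synthetic glucocorticoid) given together with interleukin-1 beta (IL-1B) was compared with IL-1B given alone, in mouse Th17 cells made in culture. The libraries were chosen by their treatment label, 3 of Dex+IL-1B and 3 of IL-1B, which are 6 of the 12 in the series. All cells were wild-type naive CD4+ T cells that had been cultured for 72 h on plates bearing antibodies to CD3 and CD28, with TGF-B and IL-6, while interferon gamma and IL-4 were neutralised by antibodies. Dex+IL-1B cells received both agents for the last 4 h, and IL-1B cells received the cytokine alone for the same 4 h. The other 6 libraries, 3 treated for 4 h with Dex alone and 3 left untreated, entered the same statistical fit and were used to set the effect of Dex without IL-1B beside its effect with it. The labels give no dose, strain, sex or age, and they do not say whether replicates came from separate mice or cultures, so p-values reflect no more than how far these libraries differed, which may be technical. The comparison asks what a glucocorticoid does to messenger RNA in Th17 cells that are at the same time receiving an inflammatory cytokine.

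Glucocorticoids bind the glucocorticoid receptor, the product of Nr3c1, which moves to the nucleus, binds DNA at glucocorticoid response elements and raises target genes such as Fkbp5, Tsc22d3 and Per1. The receptor also interferes with the inflammatory transcription factors NF-kB and AP-1, which is the textbook account of how these drugs lower cytokine and chemokine genes. IL-1B acts on Th17 cells through the receptor chain Il1r1 and the adaptor Myd88, which lead to NF-kB, and it is known in these cells for strengthening the output of cytokines such as IL-17 and GM-CSF (Csf2). NF-kB also raises its own inhibitors, among them Nfkbia and Tnfaip3.

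The 3 Dex+IL-1B libraries held 16904106, 23543887 and 23986359 counts, and the 3 IL-1B libraries 20028057, 19929403 and 17151850. Across genes, log2 CPM (the usual count unit scaled to library size, here with TMM-scaled sizes) correlated at 0.978 to 0.992 between replicates, and no replicate pair of these groups agreed within sampling noise (chi-square per degree of freedom 4.34 to 50.5). Gm42418, Gm26917 and Lars2, which overlap repeats of ribosomal RNA, summed to 18550 CPM in Dex+IL-1B 1 and 14036 CPM in IL-1B 2, against 2328 to 3732 CPM in the other 4 of these 6 libraries, so 1 library of each group stood apart. The 10 Th17 and CD4 T cell markers summed to 1842 to 2203 CPM in Dex+IL-1B and 2198 to 2360 CPM in IL-1B. B cell markers, 9 tested, summed to 94.5 to 107.9 CPM in Dex+IL-1B and 94.9 to 111.9 CPM in IL-1B, and those of CD8 T and NK cells, 6 tested, to 20.8 to 22.7 CPM in Dex+IL-1B and 19.4 to 23.0 CPM in IL-1B. Myeloid markers, of which 3 of 12 had enough reads to be tested, summed to 4.05 to 5.05 CPM in Dex+IL-1B and 4.77 to 6.26 CPM in IL-1B, with Lyz2, Adgre1, Siglech and S100a8 at 0 in all 6 libraries. Gamma-delta T and innate lymphoid markers, 4 tested, summed to 12.3 to 14.1 CPM in Dex+IL-1B and 11.2 to 16.1 CPM in IL-1B, and edgeR called 0 genes on any of these marker lists. In bulk RNA such as this, fewer cells of a type and less RNA per cell cannot be told apart.

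Of 13821 genes tested, 38 were called at an adjusted p under 0.05 (0.275%, edgeR quasi-likelihood test with Benjamini-Hochberg adjustment), 34 of them higher with Dex (0.246%) and 4 lower (0.0289%). DESeq2 called 98, of which 73 were higher and 25 lower. Called or not, 774 genes had all Dex+IL-1B libraries above all IL-1B libraries (5.6%), and 687 had all below (4.97%). With 3 libraries a group, unchanged genes can separate too, so these shares do not measure the direction of the Dex effect. The rises were led by Pdcd4, an inhibitor of translation, and held the glucocorticoid-induced genes Klf9, Fkbp5 and Zfp36l2. The 4 falls were the chemokine gene Ccl20, the semaphorin gene Sema6d, the phosphatase gene Ptpn5 and the cyclin gene Ccnd3. Of the 38, 13 changed at least 2-fold and 37 were protein coding. The smallest called rise was 1.33-fold, and the median SE of a log2 fold change over all genes was 0.15. At an unadjusted p under 0.05 the count was 932. Of the 38, 16 were still called in each of the 6 fits that left out 1 of these libraries. The number of the 38 that kept their call was 31 without Dex+IL-1B 1, 20 without Dex+IL-1B 2, 20 without Dex+IL-1B 3, 17 without IL-1B 1, 28 without IL-1B 2 and 18 without IL-1B 3, and all 38 kept their sign in every one of these fits. Without both libraries high in rRNA-overlapping genes, 57 genes were called, among them 32 of the 38.

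**Figure D1:**
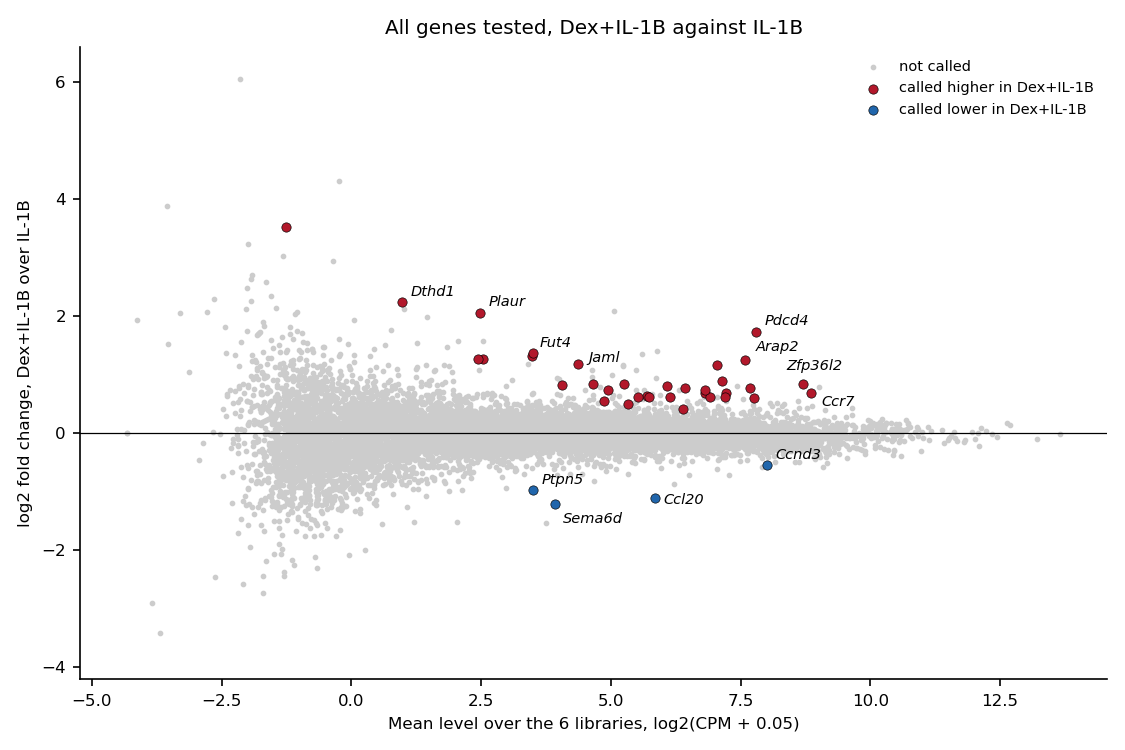
Log2 fold change of Dex+IL-1B over IL-1B (vertical axis) against the mean level over the 6 libraries as log2(CPM + 0.05) (horizontal axis) for the 13821 genes tested. The 34 red points are genes called higher, the 4 blue points genes called lower, and the widest called fold changes, those of Gm17655, Dthd1 and Plaur, belong to genes at low levels.

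The largest rise that held without each library in turn was that of Pdcd4 (ENSMUSG00000024975, chromosome 19, 53892231 to 53929860 on GRCm38), whose protein blocks the helicase eIF4A. It stood at 366, 332 and 334 CPM in Dex+IL-1B 1, 2 and 3, against 96.0, 118 and 96.3 CPM in IL-1B 1, 2 and 3. All 3 libraries with Dex lay far above all 3 without it, and within the IL-1B group the highest value came from the library rich in rRNA-overlapping genes. The log2 fold change was 1.74 ± 0.11 (SE, 95% interval 1.51 to 1.96, adjusted p = 2.24e-06 by edgeR), or 3.33-fold, and it ran from 1.69 to 1.84 over the alternatives. Pdcd4 was the only gene called when the change was tested against 1.5-fold instead of against no change. Without IL-1B its levels were 333 ± 25.5 CPM with Dex and 140.0 ± 11.8 CPM in untreated cells (SD, n = 3 each).

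Klf9 (chromosome 19, 23141226 to 23168134), a zinc finger transcription factor whose gene is a direct target of the glucocorticoid receptor, was at 29.7, 34.2 and 33.2 CPM in Dex+IL-1B, against 17.7, 19.3 and 17.4 CPM in IL-1B. The groups were well separated and tight within themselves, for a log2 rise of 0.84 ± 0.10 (adjusted p = 0.00125, edgeR). Fkbp5 (chromosome 17, 28399094 to 28517527), a co-chaperone that holds the receptor in a state of low hormone affinity, was at 201, 182 and 171 CPM in Dex+IL-1B, against 118, 114 and 112 CPM in IL-1B. It rose by 0.69 ± 0.10 (adjusted p = 0.00495, edgeR). For both genes the log2 difference made by Dex without IL-1B was larger, at 1.40 ± 0.10 for Klf9 and 1.12 ± 0.10 for Fkbp5. The test of that difference gave an unadjusted p of 0.000888 for Klf9 and 0.00673 for Fkbp5, and an adjusted p of 0.989 for each (edgeR), so it was not called. Zfp36l2, which binds AU-rich messenger RNAs and speeds their decay, was at 426, 648 and 535 CPM in Dex+IL-1B and at 309.9, 296 and 297 CPM in IL-1B. Its rise of 0.83 ± 0.13 (adjusted p = 0.00895, edgeR) came with a much wider spread in the treated group than in the other, and the call was lost without Dex+IL-1B 3, IL-1B 1 or IL-1B 3 (adjusted p up to 0.0667), and in the fit of only the 6 libraries (adjusted p = 0.132).

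Tsc22d3, which encodes GILZ and is among the best known glucocorticoid targets in lymphocytes, was not called. It was at 25.7, 79.1 and 57.5 CPM in Dex+IL-1B, against 15.0, 4.48 and 18.6 CPM in IL-1B. The groups did not overlap and the fold change was the widest on the glucocorticoid list, 2.10 ± 0.51 on the log2 scale, but replicates differed several-fold from each other, and the 95% interval ran from 0.96 to 3.23 (adjusted p = 0.257, edgeR). In both groups the library rich in rRNA-overlapping genes had the lowest Tsc22d3 level. Without both of those libraries the log2 fold change was 2.02 (adjusted p = 0.091, edgeR), also not called. The cause of the spread was not tested. Per1, a clock gene with a well known glucocorticoid response element, was at 87.1, 111 and 115 CPM in Dex+IL-1B and at 65.3, 59.0 and 90.1 CPM in IL-1B (0.55 ± 0.15, adjusted p = 0.257, edgeR), and it was called without IL-1B 3 (0.76, adjusted p = 0.0407, edgeR). Dusp1, a phosphatase that switches off the MAP kinases p38 and JNK, was at 17.2, 23.7 and 23.8 CPM in Dex+IL-1B and at 14.8, 13.7 and 17.5 CPM in IL-1B (0.50 ± 0.14, adjusted p = 0.327, edgeR). In Per1 and in Dusp1 the lowest value with Dex came from Dex+IL-1B 1 and fell within the range of the IL-1B libraries. Nr3c1, the receptor itself, was at 44.0, 52.1 and 43.2 CPM in Dex+IL-1B and at 40.1, 52.7 and 38.7 CPM in IL-1B, a difference of 0.08 whose interval of -0.17 to 0.34 includes 0.

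Over the list of 32 glucocorticoid-induced genes, 28 were tested. Of these, 4 were called higher (Pdcd4, Klf9, Fkbp5 and Zfp36l2) and 0 lower by edgeR, beside 0.246% and 0.0289% of all genes. With 0.275% of all genes called, 0 calls on any list of this size does not show that its genes were unmoved. The median log2 fold change of the 28 was 0.45 and 24 had a positive one, beside a median of 0.0015 and 6953 positive values among all 13821 genes. In 9 of the 28 (32.1%) every Dex+IL-1B library lay above every IL-1B library, and in 0 every one lay below. Over all genes those shares were 5.6% above and 4.97% below. This list and the others were chosen with earlier results of these data known, so their shares are descriptions and not tests. Besides the 4 called genes and Tsc22d3, the 9 were Txnip, an arrestin that limits glucose uptake (1.40 ± 0.32), Pik3ip1, an inhibitor of PI3 kinase (1.17 ± 0.31), the metallothionein gene Mt2 (1.16 ± 0.31) and the kinase gene Sgk1 (0.96 ± 0.24), with adjusted p-values of 0.195 to 0.317 by edgeR. Sgk1 was at 28.6, 34.3 and 35.6 CPM in Dex+IL-1B, against 19.3, 12.8 and 18.7 CPM in IL-1B. Without IL-1B, Sgk1 was at 42.3, 47.6 and 50.3 CPM with Dex and at 72.4, 41.6 and 35.8 CPM in untreated cells, where the groups overlapped. DESeq2, the alternative test, called the same 9 genes and no other member. Zbtb16, Pdk4 and Arl4d, also on the list, had 0 to 9 reads in each of these 6 libraries and were not tested. The remaining untested member was left out because its listed symbol matched no gene symbol in the annotation used, not for few reads.

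Of the other rises named for their size, that of Fut4 came first by fold change. Fut4, a fucosyltransferase that builds the Lewis x sugar, was at 15.5, 15.9 and 16.1 CPM in Dex+IL-1B and at 6.99, 6.63 and 5.27 CPM in IL-1B, a log2 rise of 1.32 ± 0.17 (adjusted p = 0.00344, edgeR). Arap2, which inactivates the small GTPase Arf6, was at 278, 274 and 263 CPM in Dex+IL-1B and at 99.4, 148 and 93.9 CPM in IL-1B, a rise of 1.25 ± 0.17 (adjusted p = 0.00386, edgeR). Its highest IL-1B value again came from IL-1B 2, and the rise ran from 1.14 to 1.49 over the alternatives. Jaml, a junctional adhesion molecule that takes part in T cell costimulation, was at 29.7, 26.8 and 29.5 CPM in Dex+IL-1B and at 12.1, 14.2 and 11.7 CPM in IL-1B, a rise of 1.18 ± 0.13 (adjusted p = 0.00125, edgeR). In all of these genes the lowest library with Dex was above the highest one without it.

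Arl5a, a small GTPase of the Golgi, had tight replicates, at 181, 179 and 190.3 CPM in Dex+IL-1B and at 102, 96.7 and 98.8 CPM in IL-1B. It rose by 0.89 ± 0.08 (adjusted p = 0.000152, edgeR). Gzf1, a zinc finger protein first described as induced by the growth factor GDNF, was at 76.0, 92.2 and 88.9 CPM in Dex+IL-1B and at 47.7, 49.6 and 49.96 CPM in IL-1B, a rise of 0.81 ± 0.10 (adjusted p = 0.00344, edgeR). Crybg1, a large protein with crystallin-type domains, was at 282, 256 and 242 CPM in Dex+IL-1B and at 141, 178 and 137 CPM in IL-1B, a rise of 0.78 ± 0.11 (adjusted p = 0.00386, edgeR). The treated and IL-1B libraries did not overlap in any of these genes, and the call of Crybg1 was lost when the fit used only the 6 libraries (adjusted p = 0.0851).

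A further 4 rises, those of Cd69, Ptpn22, Dpy19l3 and the long noncoding Gm26809, also held without each library in turn. Cd69, an early activation marker that keeps T cells in tissue by pulling down the S1P receptor, was at 137, 131 and 147 CPM in Dex+IL-1B and at 86.3, 86.4 and 83.7 CPM in IL-1B, a rise of 0.69 ± 0.08 (adjusted p = 0.00125, edgeR). The group means of Cd69 were ordered Dex+IL-1B at 138 ± 8.37, IL-1B at 85.5 ± 1.53, Dex at 45.7 ± 2.26 and untreated at 34.6 ± 1.99 CPM (SD, n = 3 each), and no neighbouring groups overlapped. Ptpn22, a phosphatase that restrains T cell receptor signalling, was at 118, 159 and 144 CPM in Dex+IL-1B and at 84.1, 83.5 and 85.0 CPM in IL-1B, a rise of 0.74 ± 0.10 (adjusted p = 0.00388, edgeR). Its order was different, with 246 ± 9.63 CPM under Dex alone and 162 ± 9.71 CPM in untreated cells, both above the Dex+IL-1B mean of 140.1 ± 21.02 CPM. Dpy19l3, which attaches mannose to tryptophan, rose by 0.63 ± 0.08, and Gm26809 by 0.84 ± 0.11. The fit of only the 6 libraries lost the calls of Ptpn22 (adjusted p = 0.0905) and Dpy19l3 (adjusted p = 0.0531).

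**Figure D2:**
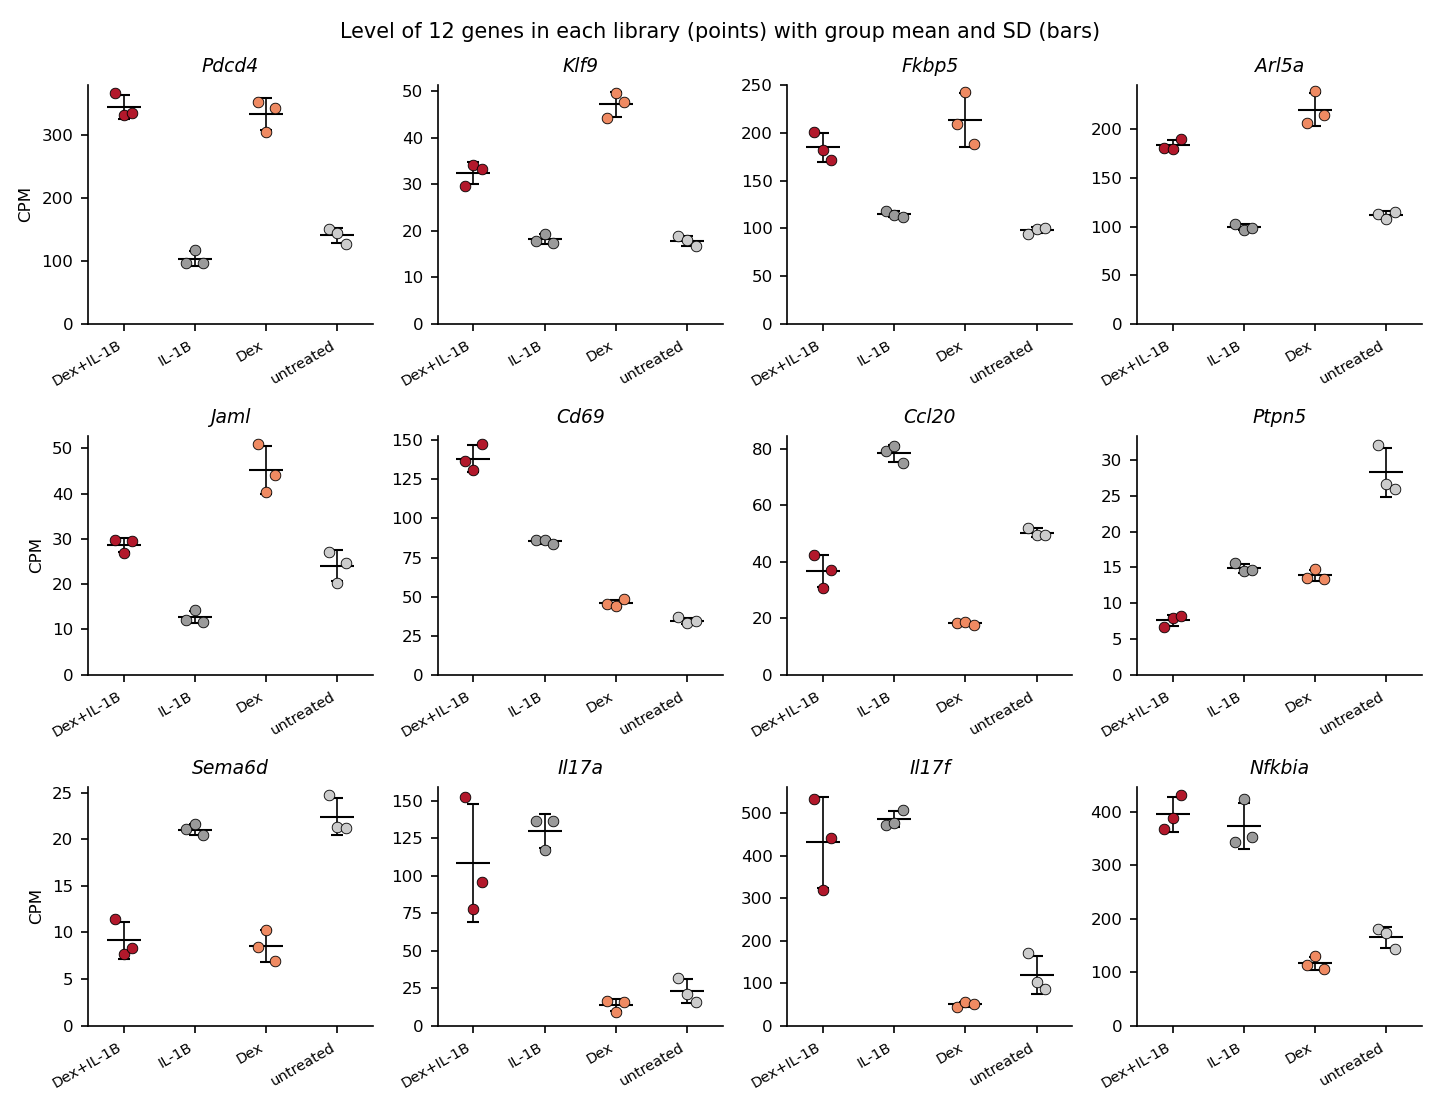
CPM of 12 genes in each of the 12 libraries (points), by group, with the group mean and SD (n = 3). For Pdcd4, Klf9, Fkbp5, Arl5a, Jaml and Cd69 each library with Dex lies above each one of its own pair without Dex, for Ccl20, Ptpn5 and Sema6d each lies below, and for Il17a, Il17f and Nfkbia the Dex+IL-1B and IL-1B points overlap.

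Ccl20 (ENSMUSG00000026166, chromosome 1, 83116766 to 83119167), the chemokine through which Th17 cells draw in other cells bearing CCR6, was the most firmly called fall. It was at 42.2, 30.7 and 37.0 CPM in Dex+IL-1B, against 79.0, 81.0 and 74.9 CPM in IL-1B, so each treated library lay well below the lowest IL-1B level. The log2 fold change was -1.10 ± 0.10 (95% interval -1.32 to -0.88, adjusted p = 0.000208, edgeR). Without IL-1B, Ccl20 was at 18.2 ± 0.48 CPM with Dex and at 50.3 ± 1.43 CPM in untreated cells, a log2 fold change of -1.46 ± 0.11. The Dex+IL-1B mean of 36.6 ± 5.74 CPM thus stood between the Dex and the untreated means, with no overlap of libraries on either side.

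Sema6d, a transmembrane semaphorin that signals through plexins, was at 11.4, 7.67 and 8.34 CPM in Dex+IL-1B, against 21.1, 21.6 and 20.5 CPM in IL-1B (-1.21 ± 0.16, adjusted p = 0.00386, edgeR). Ptpn5, known as STEP in brain and a phosphatase of the kinases ERK and p38, was at 6.69, 7.93 and 8.18 CPM in Dex+IL-1B, against 15.6, 14.5 and 14.6 CPM in IL-1B (-0.97 ± 0.12, adjusted p = 0.00344, edgeR). For Ptpn5 the group means were 7.596 ± 0.798 CPM with both agents, 14.9 ± 0.631 CPM with IL-1B, 13.9 ± 0.728 CPM with Dex and 28.3 ± 3.38 CPM in untreated cells. Its level with IL-1B and its level with Dex overlapped, and both lay between the other groups. Its call was lost in the fit of only the 6 libraries (adjusted p = 0.0531). Ccnd3, the D-type cyclin that T and B cells use to enter the cell cycle, was at 196, 216 and 214 CPM in Dex+IL-1B, against 286, 319 and 308 CPM in IL-1B (-0.54 ± 0.09, adjusted p = 0.0236, edgeR). That call was lost in each of the 6 fits without 1 library (adjusted p up to 0.11), although the groups did not overlap and the difference ran only from -0.58 to -0.47 over the alternatives.

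Promoters of the 11 genes named for the size of their change were searched for 3 motifs, since the receptor, NF-kB and AP-1 are the factors by which glucocorticoids are known to act. RefSeq windows on GRCm38.p6 of 300 bases, 250 before and 50 after a start site, were found for 11 of the 11 genes (16 windows). On both strands, a glucocorticoid response element (GNACA, a gap of 3 bases, then TGTNC) lay in 0.475% of all 32851 windows. An NF-kB site (GGG, a gap of 2 bases, then TTTCC) lay in 1.63%. A looser AP-1-like pattern (TGANTCA), which takes any base in its middle, lay in 7.81%. None of the 16 windows held the glucocorticoid response element, which says only that these letters are not in them. An NF-kB match lay in 2 of the 16, in Ccl20, which fell, and in Fut4, which rose (32 bases before the start, not printed). The AP-1-like pattern matched in 2, as TGAATCA in Klf9 and as TGACTCA in Arap2, which both rose. The Klf9 match is thus a match to the looser pattern only. Shown are Ccl20, Klf9 and Arap2, each on the strand of its gene, with the match in capitals. Ccl20 is at chr1:83116516-83116815 on the plus strand with a match 80 bases before the start, Klf9 at chr19:23140976-23141275 on the plus strand with a match 89 bases before it, and Arap2 at chr5:62766128-62766427 on the minus strand with a match 176 bases before it.
Ccl20: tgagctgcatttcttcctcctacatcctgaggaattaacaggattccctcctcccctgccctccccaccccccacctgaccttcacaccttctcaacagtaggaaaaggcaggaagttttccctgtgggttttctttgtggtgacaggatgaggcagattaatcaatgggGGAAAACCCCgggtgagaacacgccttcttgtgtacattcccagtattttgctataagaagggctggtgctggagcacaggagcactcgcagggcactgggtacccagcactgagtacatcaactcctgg
Klf9: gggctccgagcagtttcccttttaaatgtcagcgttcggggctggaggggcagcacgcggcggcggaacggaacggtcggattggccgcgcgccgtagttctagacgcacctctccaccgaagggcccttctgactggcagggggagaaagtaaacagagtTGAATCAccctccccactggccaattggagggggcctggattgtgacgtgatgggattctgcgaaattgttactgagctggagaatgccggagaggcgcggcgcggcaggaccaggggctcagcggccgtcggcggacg
Arap2: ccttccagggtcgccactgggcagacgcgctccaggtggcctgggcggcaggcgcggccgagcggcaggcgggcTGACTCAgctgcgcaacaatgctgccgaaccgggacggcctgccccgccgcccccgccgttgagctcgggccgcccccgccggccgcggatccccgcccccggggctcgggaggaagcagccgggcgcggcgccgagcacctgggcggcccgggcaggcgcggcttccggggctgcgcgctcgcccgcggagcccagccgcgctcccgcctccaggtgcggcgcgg
A match is a description of the sequence and shows no binding.

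The remaining 22 called genes lost their call without at least 1 library, though each kept its sign and had groups that did not overlap. Several act in T cell signalling or migration. Ccr7, the receptor that leads T cells to lymph nodes, was at 448, 659 and 598 CPM in Dex+IL-1B, against 316, 371 and 377 CPM in IL-1B (0.68 ± 0.13, adjusted p = 0.0426, and up to 0.302 without 1 library, edgeR). Dusp2, a nuclear phosphatase of the ERK kinases, was at 174, 184 and 178 CPM in Dex+IL-1B, against 118, 111 and 118 CPM in IL-1B (0.62 ± 0.10, adjusted p = 0.0138, and up to 0.0982). Sh3bp5, an inhibitor of the kinase BTK, differed by 0.62 ± 0.10. Rapgef3, the cAMP sensor EPAC1, was at 6.05, 8.74 and 7.84 CPM in Dex+IL-1B, against 2.61, 2.65 and 4.21 CPM in IL-1B (1.27 ± 0.24, adjusted p = 0.0421, and up to 0.286). Gbp7 is an interferon-induced GTPase with near-identical family members that could share its reads. It was at 34.1, 42.4 and 39.4 CPM in Dex+IL-1B, against 22.2, 21.9 and 25.2 CPM in IL-1B. In the fit of only the 6 libraries its call was lost (adjusted p = 0.0905, edgeR). Gbp7 was the only 1 of 25 interferon-stimulated genes called, beside 0.275% of all genes. The median of that list was -0.08, and 9 of the 25 were positive. In 3 (12%) all Dex+IL-1B libraries lay above all IL-1B libraries, and in 2 (8%) all lay below, beside 5.6% and 4.97% of all genes.

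Others encode surface and transport proteins. Plaur, the urokinase receptor, was at 5.74, 11.7 and 9.35 CPM in Dex+IL-1B, against 2.72, 1.71 and 1.99 CPM in IL-1B (2.06 ± 0.37, adjusted p = 0.0347, and up to 0.214 without 1 library, edgeR). Gpnmb, a transmembrane glycoprotein, was at 6.18, 9.29 and 9.02 CPM in Dex+IL-1B, against 2.87, 4.20 and 3.16 CPM in IL-1B (1.27 ± 0.19, adjusted p = 0.00753, and up to 0.0666). Slc39a8, the zinc importer ZIP8, was at 128, 93.9 and 104 CPM in Dex+IL-1B, against 56.4, 78.4 and 56.0 CPM in IL-1B (0.77 ± 0.14, adjusted p = 0.0279, and up to 0.158), with its highest value in either group in the library rich in rRNA-overlapping genes. Ston1, an endocytic adaptor, was at 14.9, 18.8 and 15.1 CPM in Dex+IL-1B, against 6.44, 6.25 and 6.26 CPM in IL-1B (1.37 ± 0.23, adjusted p = 0.017, and up to 0.112). Adam9, a membrane metalloprotease, and Lgr4, a receptor for R-spondins, differed by 0.64 ± 0.10 and 0.55 ± 0.09.

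The mitochondrial genes Stard7, which carries phosphatidylcholine, and Tars2, a threonyl-tRNA synthetase, differed by 0.60 ± 0.09 and 0.41 ± 0.07. Neb, which encodes the giant thin filament protein nebulin of skeletal muscle, was at 190.0, 169 and 186 CPM in Dex+IL-1B, against 63.4, 116 and 62.7 CPM in IL-1B (1.17 ± 0.21, adjusted p = 0.0398, and up to 0.173 without 1 library, edgeR). IL-1B 2 again stood above the other libraries of its group. Dthd1, a death domain gene, had 60, 69 and 65 reads in Dex+IL-1B, against 7, 16 and 13 in IL-1B (2.24 ± 0.37, adjusted p = 0.0171, and up to 0.0995). Gm17655 had 8, 24 and 12 reads in Dex+IL-1B and 1 read in each IL-1B library, and its fold change is not given weight at such counts. The rest of the 22 were Ccnd3 and Zfp36l2, described above, and the 4 genes Arhgap17 (0.50 ± 0.09), Ccdc117 (0.61 ± 0.09), 1600014C10Rik (0.61 ± 0.11) and Tlcd1 (0.82 ± 0.14).

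**Figure D3:**
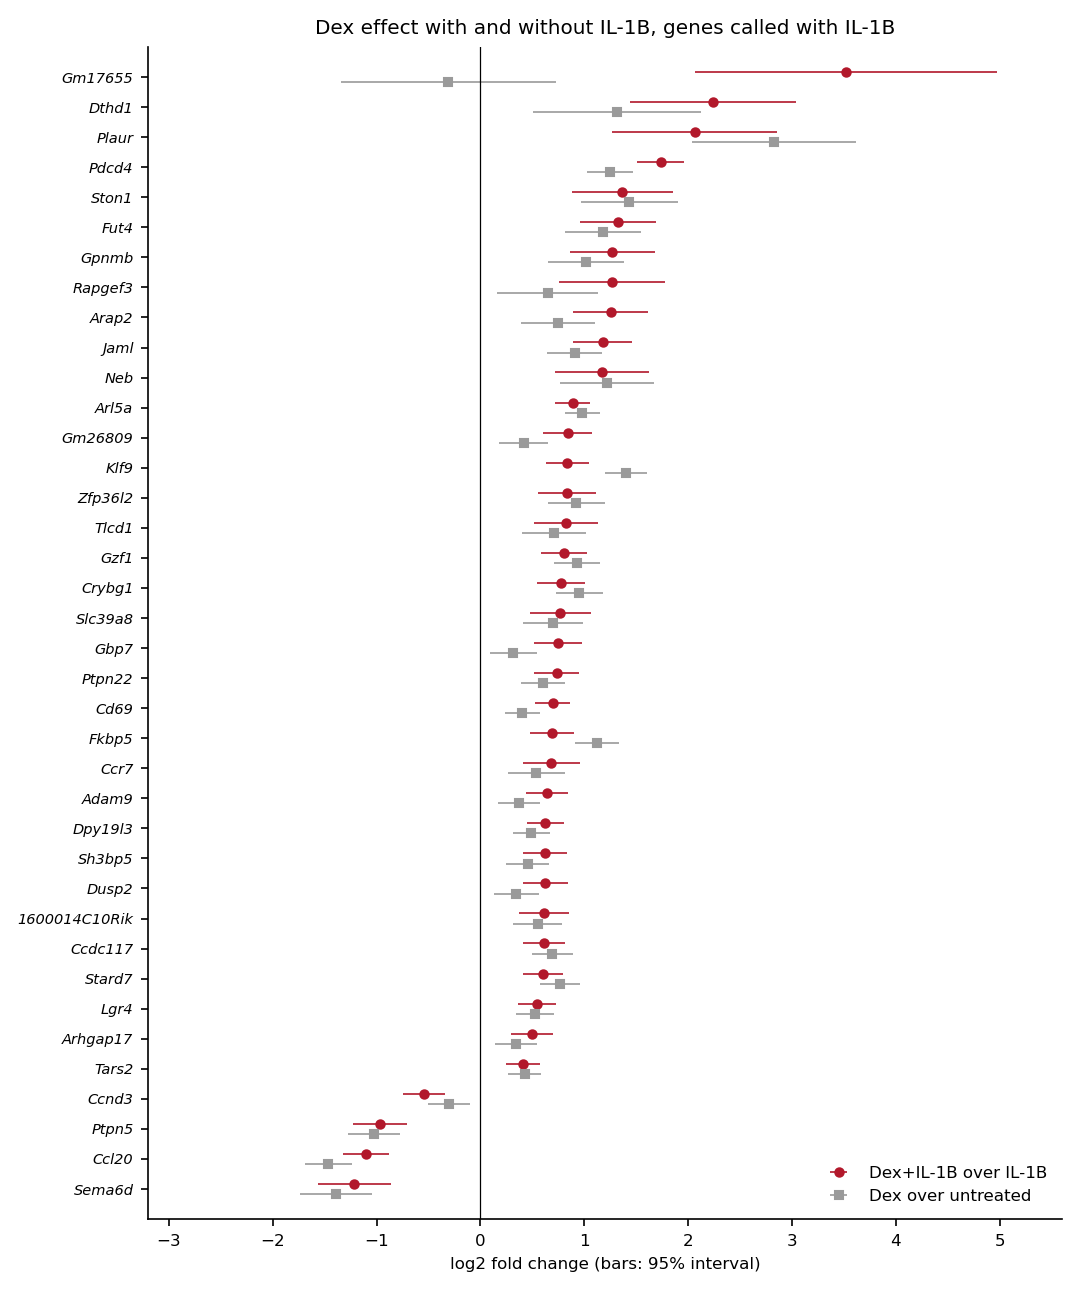
Log2 fold change with its 95% interval for the 38 genes called in Dex+IL-1B against IL-1B (circles), with the same genes in Dex against untreated (squares). All but Gm17655 have the same sign in both, and the red intervals exclude 0 because these genes were selected on that contrast.

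NF-kB target genes did not move together with Dex in the presence of IL-1B. Of 30 tested, 0 were called higher and 1 lower, Ccl20, beside 0.246% and 0.0289% of all genes. The median log2 fold change was -0.07. In 3 of the 30 (10%) all Dex+IL-1B libraries lay above all IL-1B libraries, and in 6 (20%) all lay below, beside 5.6% and 4.97% of all genes. Those below were Ccl20, Csf2 (-1.51), Lta (-0.71), Ltb (-0.43), Nfkbie (-0.17) and Nfkb2 (-0.08), and those above were Nfkbiz (0.62), Tnfaip3 (0.35) and Tnip1 (0.10). Ltb, the membrane anchor of the lymphotoxin complex, came nearest to a call by edgeR and was called by DESeq2, at 653, 614 and 661 CPM in Dex+IL-1B, against 799, 908 and 887 CPM in IL-1B (-0.43 ± 0.08, adjusted p = 0.0588, edgeR). Nfkbiz, a nuclear cofactor of NF-kB needed for the Th17 programme, was at 135, 165 and 182 CPM in Dex+IL-1B, against 96.2, 103 and 114 CPM in IL-1B (0.62 ± 0.22, adjusted p = 0.608, edgeR). Tnfaip3, the ubiquitin-editing inhibitor A20, was at 126, 173 and 157 CPM in Dex+IL-1B, against 121, 112 and 126 CPM in IL-1B (0.35 ± 0.13, adjusted p = 0.648, edgeR).

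Nfkbia, which encodes the inhibitor IkB alpha and is a classical glucocorticoid target in other cells, was at 367, 388 and 431 CPM in Dex+IL-1B and at 343, 423 and 353 CPM in IL-1B. The groups overlapped, and the difference was 0.08 ± 0.12 (interval -0.17 to 0.33). Without IL-1B the difference made by Dex was -0.50 ± 0.12 (adjusted p = 0.0888, edgeR). The unadjusted p of the interaction was 0.00317, which did not survive adjustment over all genes. Of 23 genes of IL-1 receptor signalling, 0 were called, beside 0.275% of all genes, and the median was 0.03. In 3 (13.0%) all Dex+IL-1B libraries lay above all IL-1B libraries, beside 5.6% of all genes. Irak1, a kinase recruited by the receptor complex, was at 92.6, 97.2 and 97.5 CPM in Dex+IL-1B and at 86.3, 86.3 and 86.7 CPM in IL-1B (0.15 ± 0.07, adjusted p = 0.74, edgeR). Il1r1 was at 10.8, 6.48 and 9.86 CPM in Dex+IL-1B and at 7.44, 6.85 and 7.43 CPM in IL-1B, with overlap and an interval of -0.56 to 1.18 on the log2 scale. Il1r2, the decoy receptor, was at 10.2, 10.2 and 13.2 CPM in Dex+IL-1B and at 9.76, 9.45 and 8.48 CPM in IL-1B (0.28 ± 0.15, adjusted p = 0.779, edgeR).

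Of 32 cytokine and chemokine genes tested, edgeR called 0 rises and 1 fall, Ccl20, beside 0.246% and 0.0289% of all genes. DESeq2 also called Ltb. Of the 32, 6 had a positive log2 fold change, and the median was -0.26. In 10 of the 32 (31.2%) all Dex+IL-1B libraries lay below all IL-1B libraries, beside 4.97% of all genes. These were Ccl20, Csf2, Ltb, Lta, Tnfsf11, Il21, Ccl4, Lif, Il13 and Csf1. Lta at 81.6, 138 and 133 CPM in Dex+IL-1B and 220.3, 139.6 and 218 CPM in IL-1B shows how narrow such a gap can be. In 1 of the 32 (3.1%), Ccl5, all lay above (0.72 ± 0.37, and 0.28 without IL-1B 2), beside 5.6% of all genes. Csf2, which encodes GM-CSF, was at 1.96, 1.70 and 2.61 CPM in Dex+IL-1B, against 5.13, 7.18 and 5.67 CPM in IL-1B (-1.51 ± 0.49, interval -2.57 to -0.46, adjusted p = 0.512, edgeR). Il10 had 2 to 6 reads in each of these libraries and was not tested.

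The cytokines that define Th17 cells were not called. Il17a was at 152, 77.5 and 95.6 CPM in Dex+IL-1B and at 136, 117 and 136 CPM in IL-1B (-0.26 ± 0.29, interval -0.89 to 0.36, adjusted p = 0.894, edgeR). Il17f was at 533, 320.1 and 441 CPM in Dex+IL-1B and at 472, 477 and 507 CPM in IL-1B (-0.17 ± 0.22, interval -0.66 to 0.32, adjusted p = 0.917, edgeR). In both genes Dex+IL-1B 1 was above every IL-1B library and the other treated libraries below every one, so the treated libraries lay on both sides of the IL-1B group. Dex+IL-1B 1 is the treated library rich in rRNA-overlapping genes, and its part in these values was not tested further. Without it the difference was -0.58 for Il17a and -0.34 for Il17f, and without Dex+IL-1B 2 it was -0.08 for Il17a and -0.00013 for Il17f. Without IL-1B, Il17f was lower with Dex by -1.27 ± 0.23 (adjusted p = 0.035, edgeR), at 49.7 ± 5.78 CPM with Dex against 120.1 ± 44.8 CPM in untreated cells. The interaction for Il17f was 1.10 ± 0.32 with an unadjusted p of 0.0048 and was not called. Il2 (-0.29 ± 0.26), Ifng (-0.76 ± 0.55) and Il22 (0.09 ± 0.68) had intervals that include 0, and Il22 stood at only 0.843 to 1.62 CPM in Dex+IL-1B and 0.829 to 1.17 CPM in IL-1B.

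Genes of Th17 identity gave 0 rises and 1 fall, Ccl20, among 25 tested, beside 0.246% and 0.0289% of all genes. Their median was 0.08. Il23r was at 29.5, 29.3 and 23.6 CPM in Dex+IL-1B and at 22.1, 34.9 and 20.2 CPM in IL-1B, with overlap. Genes tied to Th17 pathogenicity (18 tested, median -0.06), Th1 genes (13, median 0.02) and regulatory T cell genes (15, median -0.02) gave 0 calls. So did cytokine receptors (26, median 0.03), JAK, STAT and SOCS genes (24, median 0.02), coinhibitory and costimulatory receptors (20, median -0.01), adhesion and integrin genes (17, median -0.06) and glycolysis and hypoxia genes (22, median -0.03). With 0.275% of all genes called, this does not show that these lists were unmoved. In 4 of the 18 pathogenicity genes (22.2%) all Dex+IL-1B libraries lay below all IL-1B libraries, beside 4.97% of all genes. In 2 (11.1%) all lay above, beside 5.6%. Over the 14 lists with 0 calls by edgeR, 0 to 7 members a list had an unadjusted p under 0.05, beside 932 of all 13821 genes. The highest counts were 7 of the 20 coinhibitory and costimulatory receptors and 6 of the 22 AP-1 and immediate early genes. DESeq2 called 3 genes on the 14 lists, Il6ra, Bcl2l11 and Itga3. Il6ra, the receptor for a cytokine that starts Th17 differentiation, was at 124, 128 and 136 CPM in Dex+IL-1B and at 97.9, 96.3 and 96.2 CPM in IL-1B (0.42 ± 0.10, adjusted p = 0.155, edgeR), and the integrin gene Itga3 at 239.7, 225 and 208 CPM in Dex+IL-1B and 273, 336 and 276 CPM in IL-1B (-0.40 ± 0.09, adjusted p = 0.167, edgeR). Itga3 was also called by edgeR without both libraries rich in rRNA-overlapping genes (-0.34, adjusted p = 0.0472).

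No member of these lists named next was called by edgeR. Icos, a costimulatory receptor, was at 268, 235 and 243 CPM in Dex+IL-1B and at 200.1, 183 and 178 CPM in IL-1B (0.41 ± 0.13, adjusted p = 0.434, edgeR). Entpd1, the ectonucleotidase CD39, was at 4.16, 3.88 and 4.00 CPM in Dex+IL-1B and at 1.56, 2.54 and 1.64 CPM in IL-1B (1.07 ± 0.36, adjusted p = 0.522, edgeR). Socs2, an inhibitor of cytokine signalling, was at 358, 327 and 380.3 CPM in Dex+IL-1B and at 298, 256 and 284 CPM in IL-1B (0.35 ± 0.10, adjusted p = 0.4, edgeR). In these 3 genes the groups did not overlap. Ctla4, an inhibitory receptor, was at 356, 866 and 753 CPM in Dex+IL-1B and at 424, 258 and 457 CPM in IL-1B, and the groups overlapped (0.79 ± 0.30). In each group its lowest value came from the library rich in rRNA-overlapping genes. Ikzf2, the regulatory T cell factor Helios, was at 1.20, 1.49 and 1.10 CPM in Dex+IL-1B and at 2.66, 2.32 and 1.58 CPM in IL-1B (-0.79 ± 0.29). Stat4, a transducer of IL-12 signals, was at 31.5, 30.4 and 28.7 CPM in Dex+IL-1B and at 34.7, 35.4 and 36.8 CPM in IL-1B (-0.24 ± 0.13). The groups of Ikzf2 and of Stat4 did not overlap. The integrin gene Itgal differed by -0.30 ± 0.10 and by -0.20 without IL-1B 2. The differences of Il10ra (0.44 ± 0.16) and Pdk1 (0.16 ± 0.12) came with overlap. Pias3 (0.35 ± 0.15) also overlapped and was at 0.23 without IL-1B 2. Hk2, a hexokinase of glycolysis, was at 495, 393 and 453 CPM in Dex+IL-1B and at 419, 853 and 505 CPM in IL-1B, a difference of -0.41 ± 0.26 that was -0.05 without IL-1B 2.

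Among AP-1 and immediate early genes, 22 tested, 0 were called, beside 0.275% of all genes, and the median was 0.10. In 5 of them (22.7%), Fosb, Egr1, Egr2, Egr3 and Jund, all Dex+IL-1B libraries lay below all IL-1B libraries, beside 4.97% of all genes. In 1 of the 22 (4.5%), Fos, all lay above, beside 5.6% of all genes. Fos was at 5.23, 5.50 and 5.86 CPM in Dex+IL-1B and at 3.77, 2.76 and 4.27 CPM in IL-1B (0.62 ± 0.20, adjusted p = 0.474, edgeR), and Egr3 at 29.5, 26.4 and 30.3 CPM in Dex+IL-1B and at 33.8, 41.8 and 41.3 CPM in IL-1B (-0.44 ± 0.14, adjusted p = 0.474, edgeR). MAP kinase phosphatase and Sprouty genes (14, median 0.12) had 1 rise, Dusp2, and mRNA decay factors (15, median 0.05) had 1, Zfp36l2. KLF genes (12, median -0.08) had 1 rise, Klf9, and circadian clock genes (18, median 0.13) had none, with the clock repressor gene Per2 at 6.43, 9.59 and 10.5 CPM in Dex+IL-1B and 5.68, 5.53 and 6.03 CPM in IL-1B (0.63 ± 0.26). Naive-state and homing genes (17, median 0.01) had 1 rise, Ccr7. On the same list Klf2, a transcription factor that drives the tissue exit receptor gene S1pr1, was at 39.9, 56.8 and 57.8 CPM in Dex+IL-1B, against 21.1, 23.9 and 24.7 CPM in IL-1B (1.15 ± 0.32, adjusted p = 0.363, edgeR). Semaphorin and prostanoid pathway genes (16, median -0.10) had 1 fall, Sema6d. In 4 of these 16 (25%) all Dex+IL-1B libraries lay below all IL-1B libraries, beside 4.97% of all genes. In 0 all lay above, beside 5.6% of all genes. Cell cycle genes (28, median -0.002) had 1 fall, Ccnd3. Beside these counts, 0.246% of all genes were called higher and 0.0289% lower, and 1 call on a list is not read as a move of that list. Klf9 and Zfp36l2 are the genes already counted on the glucocorticoid-induced list.

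Cell survival and death genes (23, median -0.05) gave 0 calls, beside 0.275% of all genes. Bcl2l11, which encodes the death-promoting protein BIM and is induced by glucocorticoids in dying thymocytes, was at 68.6, 77.0 and 84.2 CPM in Dex+IL-1B, against 33.9, 42.6 and 43.1 CPM in IL-1B. The groups were separate and the difference was 0.95 ± 0.23 (interval 0.45 to 1.44), but the adjusted p was 0.215 by edgeR and ran from 0.00648 to 0.696 over the alternatives. DESeq2 called it (adjusted p = 0.00648), as did edgeR in the fit of only the 6 libraries (adjusted p = 0.0407). Mcl1, a survival protein of the BCL2 family, was at 382, 449 and 436 CPM in Dex+IL-1B, against 355, 332 and 329.8 CPM in IL-1B (0.32 ± 0.09, adjusted p = 0.38, edgeR). Cholesterol synthesis genes also gave 0 calls among 20, with a median of -0.16. Of the 20, 2 had a positive value (10%), beside 50.3% of all genes, and in 6 (30%), among them Hmgcs1, Srebf2 and Fdps, all Dex+IL-1B libraries lay below all IL-1B libraries, beside 4.97% of all genes. Hmgcs1, an early enzyme of the pathway, was at 235, 249.7 and 249 CPM in Dex+IL-1B, against 309.6, 285 and 295 CPM in IL-1B (-0.28 ± 0.10, adjusted p = 0.546, edgeR).

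**Figure D4:**
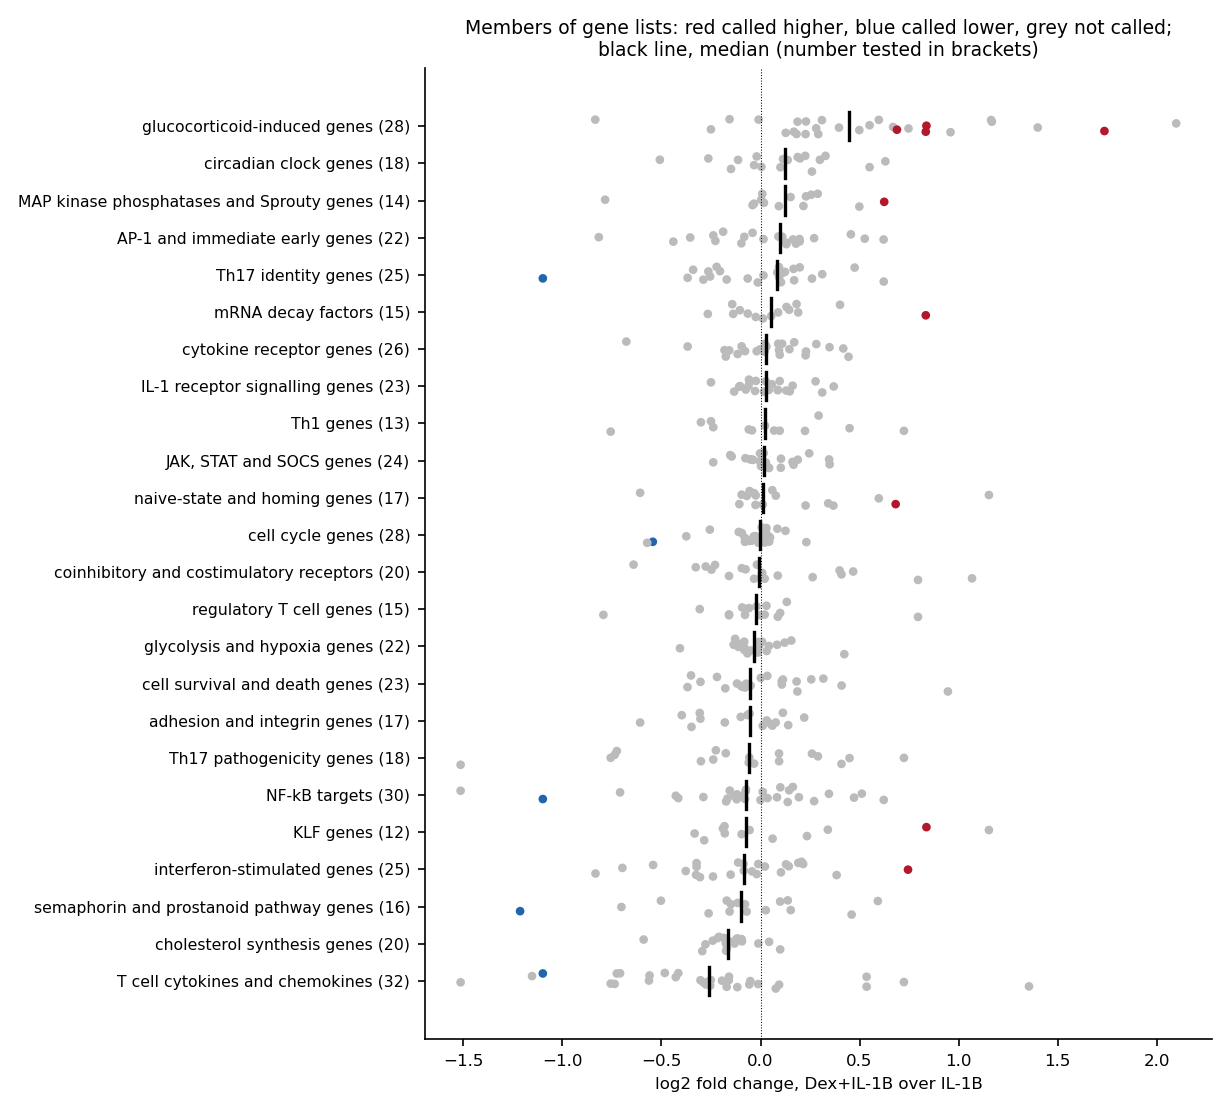
Log2 fold change of Dex+IL-1B over IL-1B for the tested members of 24 gene lists (1 point a gene, red called higher, blue called lower, grey not called), with the median of each list as a black line and the number tested in brackets. The glucocorticoid-induced list has the highest median, 0.45, and the cytokine and chemokine list the lowest, -0.26. All lists were chosen with earlier results of these data known.

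The effect of Dex with IL-1B was then set beside its effect without IL-1B. Dex alone against untreated called 74 genes (0.535%), 51 higher and 23 lower. Both contrasts used different libraries but shared the estimate of spread. They had 26 called genes in common, which is 68.4% of the 38 and 35.1% of the 74. Of the 38, 37 had the same sign in both contrasts, beside 58.3% of all genes tested, and the exception was Gm17655. Of the 74, 73 had the same sign, and the exception was Pim2. The direct test, the interaction of Dex and IL-1B, called 0 genes with edgeR (0%, smallest adjusted p 0.989), with 427 genes (3.09%) at an unadjusted p under 0.05, and DESeq2 called 1 (Pim2). A call in one contrast and not in the other therefore does not show that the effect of Dex differed.

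Genes called in Dex alone had smaller values in the cytokine contrast, which the choice of genes on the first contrast favours. The 51 raised genes had a median log2 fold change of 0.63 with IL-1B and 0.84 without it, and 39 of them were smaller with IL-1B. The 23 lowered genes had a median of -0.30 with IL-1B and -0.74 without it, and 23 of 23 were smaller in size with IL-1B. Among the 38 genes chosen on the cytokine contrast the median size was 0.81 with IL-1B and 0.73 without it, and 15 were smaller with IL-1B. Of the 23 genes lowered by Dex alone, 3 were also called with IL-1B (Ccl20, Sema6d and Ptpn5). Among the other 20 were the chemokine gene Ccl3, at 2.40, 0.852 and 1.47 CPM in Dex+IL-1B and 3.07, 2.27 and 2.28 CPM in IL-1B, and Nfkbie, Ltb and Il17f. The interaction of Ccl3 was 1.39 ± 0.46 (unadjusted p = 0.00972, edgeR), also not called, and its reads could be shared with copies of its family.

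**Figure D5:**
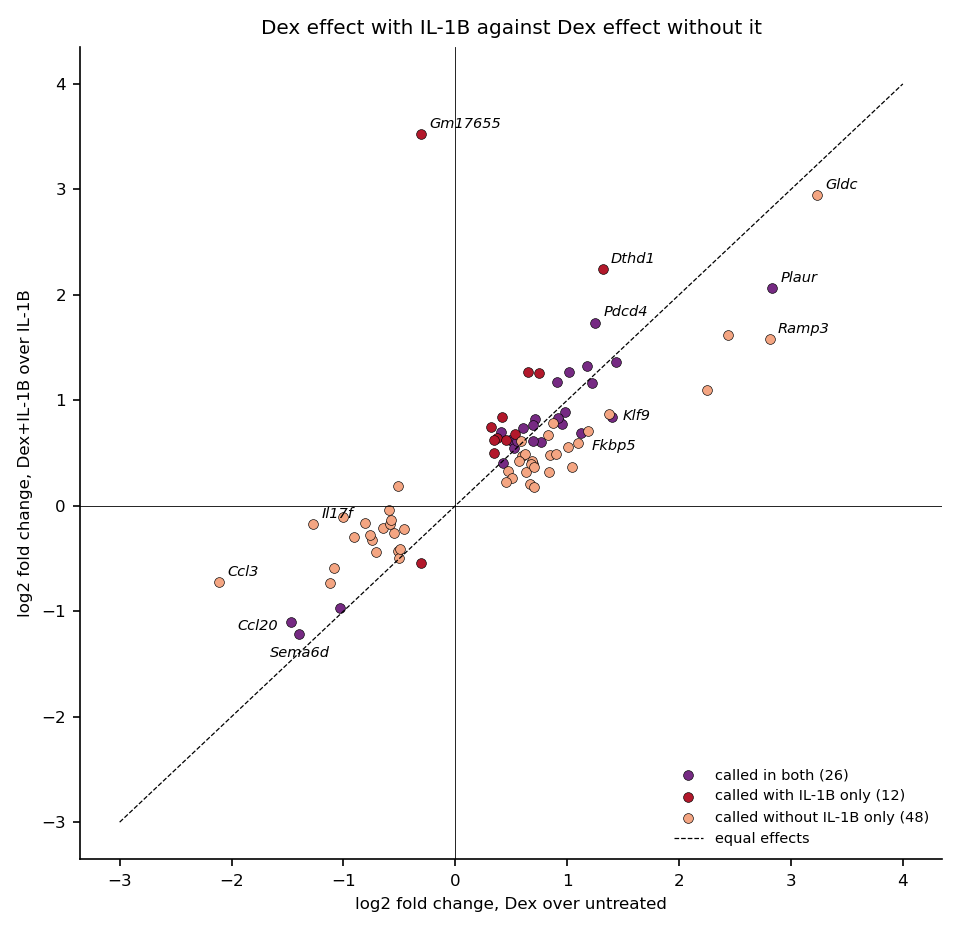
Log2 fold change of Dex+IL-1B over IL-1B (vertical axis) against Dex over untreated (horizontal axis) for the 86 genes called in either, coloured by where they were called (26 in both, 12 with IL-1B only, 48 without it only), with the line of equal effects. Of the genes called in Dex alone, 39 of the 51 raised and 23 of the 23 lowered have a smaller change on the vertical axis. Their selection on the horizontal axis favours this.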

How the data were processed

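The deposited table gives reads counted by the authors for each gene in 12 libraries, as whole-number counts without normalization, and every library was used. Tools named in the submitters' processing notes are STAR 2.7.0a, HTSeq 0.6.1 and DESeq2, with GRCm38 and mm10 as builds and no roles or settings. Per the labels' protocols, RNA was selected with poly-T beads and copied from random primers. The strand setting is not given in the sources used here, so overlapping and antisense genes cannot be told apart, and reads of near-identical copies could be split. Of 35275 gene identifiers, 34490 matched a GENCODE M21 symbol on GRCm38, and 0 lines named no gene.

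Counts were tested in R 4.3.3 with edgeR 4.0.16: TMM scaling, the edgeR filter on group (13821 genes, with 0.0562% of counts left out), and a one-way robust quasi-likelihood fit of the 12 libraries with 8 residual degrees of freedom. A gene was called at a Benjamini-Hochberg adjusted p under 0.05 over all genes tested. Log2 fold changes are ± SE, CPM values ± SD, and intervals cover 95%. Total counts of 16904106 to 30445734 make counting error small except in genes with few reads. PCR copies are not independent molecules, so depth bounds counting error only. The fit was tested on simulated data.

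Genes named for size were up to 8 rises and 8 falls among called genes that averaged 5 CPM or more in the higher group, did not overlap between groups and were still called without each of the 6 libraries in turn, which fixes their stability in that respect (8 rises and 3 falls qualified). A panel of 20 genes was set to be given whatever its values, of which 1 is not reported here, and up to 4 called members of each list, or where none was called up to 2 with the smallest adjusted p. The other called genes are named to account for all 38. Members not called that are named for not overlapping between groups, and the genes of the closing part on neighbours, were chosen after their values were seen. The members and the 25 lists were chosen with earlier results of these data known, and lists are described by counts and medians with no test. Alternatives were RLE scaling, 2 other filters, limma-voom (limma 3.58.1), DESeq2 1.42.0, a replicate block, a fit of only 6 libraries, a test against 1.5-fold, other thresholds, each library left out, and both libraries high in rRNA-overlapping genes left out.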

Additional observations from a re-analysis of the deposited data

Results flagged for a closer look

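Pim2, a serine/threonine kinase gene that promotes T cell survival, was flagged because DESeq2's test of the difference between the effect of Dex with and without IL-1B called it, as the only gene. That difference was 0.71 ± 0.15 on the log2 scale (DESeq2 adjusted p = 0.0185), and 0.70 ± 0.14 by edgeR, which did not call it (adjusted p = 0.989). Pim2 was at 469.9, 535 and 542 CPM in Dex+IL-1B, against 470.3, 395 and 493 CPM in IL-1B, where the groups overlapped (0.19 ± 0.10). Without IL-1B it was at 222, 211 and 206 CPM with Dex, against 317, 316 and 279 CPM in untreated cells, a fall of 0.52 on the log2 scale that edgeR called.

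Tnip1, a partner of A20 in restraining NF-kB, was flagged because its libraries moved in opposite directions in the 2 contrasts. All Dex+IL-1B libraries (238, 245 and 230.5 CPM) lay above all IL-1B libraries (216, 226 and 223 CPM), while all Dex libraries (120.0, 125 and 98.2 CPM) lay below all untreated ones (164, 149 and 130.2 CPM). The interaction was 0.47 ± 0.15 (edgeR adjusted p = 0.989) and was not called. Such opposite moves occurred in 32 genes, 0.232% of those tested.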

How the results depend on the processing

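The count of 38 called genes was 36 with RLE scaling, 48 with no filter on low counts, 35 with the stricter filter, 34 with limma-voom, 98 with DESeq2 (all 38 among them), 18 in a fit of only the 6 libraries (14 of the 38), 1 against a 1.5-fold change, 48 at an adjusted p under 0.1, and 22 under 0.01. Leaving out 1 library gave 17 (without IL-1B replicate 1) to 37 (without Dex+IL-1B replicate 1), from fits with fewer degrees of freedom. The interaction stayed at 0 except with DESeq2, which called 1. Same-numbered Dex+IL-1B and IL-1B libraries had correlations, across genes, of their deviations from the group means of -0.036, -0.044 and 0.057. Differently numbered ones ran from -0.066 to 0.074. These values show no pairing by number, but with 3 libraries a group they cannot exclude it. The fit with the replicate number as a block called 31 genes, all among the 38.

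The called genes kept their sign in each of these settings in which they were tested, which leaves out Gm17655 under the stricter filter and in the fit of 6 libraries. Of the 41 genes not called that were followed over the settings, 5 changed sign: over the fits without 1 library, Nr3c1 ran from -0.011 to 0.24, Il23r from -0.044 to 0.38, Il22 from -0.29 to 0.27, Gm26917 from -0.66 to 1.11 and Lars2 from -1.57 to 1.38. Lars2 was also -0.16 with limma-voom and -0.49 without both libraries high in rRNA-overlapping genes. The median of the glucocorticoid-induced list ran from 0.26 to 0.59 over the alternatives, that of the cytokine list from -0.34 to -0.22 and that of the cholesterol list from -0.18 to -0.13. Those of 13 of the 25 lists crossed 0, among them Th17 identity (-0.03 to 0.09) and naive-state and homing genes (-0.03 to 0.09). The cause of these shifts was not tested. Depth limits what can be said of Il10, Zbtb16 and Pdk4, which had few or no reads.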

Other observations

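Among the 38 called genes, 3 pairs lay within 100 kb of each other on the same chromosome, a pattern noticed after the values were seen and not tested. Neb and Arl5a were 19.5 kb apart on chromosome 2, both on the minus strand, with log2 fold changes of 1.17 and 0.89 in Dex+IL-1B over IL-1B and of 1.22 and 0.98 in Dex over untreated. Stard7 and Dusp2, both on the plus strand of chromosome 2, were 37.2 kb apart (0.60 and 0.62 with IL-1B, 0.77 and 0.35 without it), with 0 tested genes between them. Arap2 and Dthd1, on opposite strands of chromosome 5, were 47.7 kb apart (1.25 and 2.24 with IL-1B, 0.75 and 1.32 without it), also with 0 between. Between Neb and Arl5a lay 1 tested gene, Gm13522, which had at most 0.682 CPM in the Dex+IL-1B libraries and 0.0585 CPM in the IL-1B libraries.

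Of the genes called higher in Dex over untreated but not in Dex+IL-1B over IL-1B, 3 are given here, chosen after their values were seen. Gldc, the glycine decarboxylase of one-carbon metabolism, was at 1.07, 1.02 and 1.81 CPM in Dex+IL-1B, against 0, 0.221 and 0.293 CPM in IL-1B (2.94 ± 0.67, adjusted p = 0.144, edgeR). Ramp3, a partner of the calcitonin receptor-like receptor, was at 2.52, 8.52 and 7.29 CPM in Dex+IL-1B, against 2.82, 1.33 and 2.05 CPM in IL-1B, where the lowest treated library lay within the IL-1B range (1.58 ± 0.51, adjusted p = 0.522, edgeR). Dysf, which encodes the membrane repair protein dysferlin, was at 3.41, 6.01 and 3.83 CPM in Dex+IL-1B, against 2.21, 3.15 and 1.93 CPM in IL-1B (0.87 ± 0.28, adjusted p = 0.512, edgeR). None of these 3 was called with IL-1B, and none had an interaction that was called.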
